A study of Mus musculus with 6 samples.

Results

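The ligands of the TNF superfamily and their receptors were examined in 3T3 cells, a fibroblast line established from mouse embryos. The members were chosen by name alone. They are the non-control probes whose gene name on the array is that of a numbered Tnfsf or Tnfrsf gene, or is Tnf, Lta, Ltb, Fas, Fasl, Cd40, Cd27, Cd70, Ngfr or Ltbr. This rule took 51 of 55681 probes, for 40 of 35527 gene names, of which 15 are ligands and 25 are receptors. The cells had received GapmeR Ntep, an antisense oligonucleotide directed at the long non-coding RNA Ntep, or GapmeR control, each at 50 nM for 48 h. Each label has 3 arrays, from 3 independent experiments with 1 culture per GapmeR in each, and all 6 arrays were in 1 color on 1 slide. A supplement of the study writes the dose as 50 nM given 2 times. Only these 2 oligonucleotides were compared, in 1 cell line.

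TNF superfamily ligands are mostly trimeric membrane proteins, which can be cleaved from the cell surface. They bind trimers of receptors that recruit TRAF adaptors and activate NF-kappaB and MAP kinases. Receptors with a cytoplasmic death domain can also assemble FADD and caspase-8 and start apoptosis. Fibroblasts are known to carry receptors for TNF, lymphotoxin, FasL, TRAIL and TWEAK, whereas many of the ligands are best known from activated immune cells.

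Ntep itself, named A630089N07Rik in the files, was read by 1 probe on chromosome 16 (mm9, 98283712 to 98283771). Its signal was 472, 91.5 and 226 on the Ntep-labelled arrays of experiments 1, 2 and 3. On the arrays with the control label it was 271, 272 and 361. The labels overlapped, and in experiment 1 the order went against the label. The log2 difference was -0.48 (SE 0.585, n = 3 against 3, limma adjusted p = 0.632), so every direction below is that of the label. Arrays correlated at 0.961 to 0.985 within a label and at 0.926 to 0.973 between labels, and 43.75% to 53.34% of the probes of an array were well above background.

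Of the 40 genes, 30 were tested, namely 10 ligands and 20 receptors. A gene was tested where the mean signal of its probe reached 50 in the brighter label, after quantile normalization and with values under 20 set to 20. The brightest probe stands for a gene. Among the 30 genes, 5 reached the mean of 50 in 1 label only, so their counts below are a description. They were 2 in the controls (Tnfsf4 and Tnfrsf14) and 3 on the Ntep-labelled arrays (Fasl, Ltb and Tnfsf13b). The remaining 10 genes had no signal above 105.1 on any array. They were the ligands Tnf, Tnfsf8, Tnfsf11, Tnfsf14 and Cd70 and the receptors Cd27, Tnfrsf8, Tnfrsf11b, Tnfrsf17 and Tnfrsf18. Of these, Tnf, Tnfsf11 (RANKL), Tnfrsf8, Tnfrsf11b (the decoy receptor osteoprotegerin) and Tnfrsf17 lay at the floor of 20 on all 6 arrays. In total 9 of the 40 genes had no probe well above background on any array, and 20 of the 30 tested genes were well above background on all 6 arrays.

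After Benjamini-Hochberg adjustment over all tested probes, 1 member rose and 1 fell (limma, adjusted p under 0.05). This is 6.67% of the 30 tested members, against 5.16% of all 22034 genes tested (1.98% higher and 3.18% lower). At a fold change of 2 and an unadjusted p under 0.01, 1 member rose and 6 fell, or 23.3% of them against 7.89% of all genes (2.89% higher and 5% lower). Among the 20 members well above background on all 6 arrays, 3 passed this limit (15%), all of them lower. The share of all genes under that restriction was not counted. The 6 that fell include Tnfsf4, which reached the mean of 50 in the controls only. Of these 7 calls, that of Tnfsf10 was kept under all 19 alternative settings, and those of the other 6 genes were lost without the filter on low signal, with the methods' t-test and without 1 or another array. The 3 arrays of each label did not overlap for 15 members (50%), 6 higher and 9 lower on the Ntep-labelled arrays, against 32.6% of all genes (17.1% and 15.5%). The difference was below 0 for 17 of the 30 members, against 45.6% of all genes. The median log2 difference was -0.19 over the 30 members and 0.058 over all genes. It was 0.041 over the ligands and -0.26 over the receptors. Within experiments 1, 2 and 3 the members' median was -0.42, -0.11 and -0.12, and that of all genes was 0.030, 0.050 and 0.028. The direction was the same in all 3 experiments for 22 of 30 members, a count not taken over all genes. Without GapmeR control replicate 1 the members' median was 0.11. With scaling to the 75th percentile it was 0.018, where the median of all genes was 0.22. With the experiment as a block, 11 members passed the adjusted limit (4 higher and 7 lower), against 13.9% of all genes. These were the 2 members above and 9 more, Tnfsf4 among them. The blocked values of the 9 are given below.

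**Figure D1:**
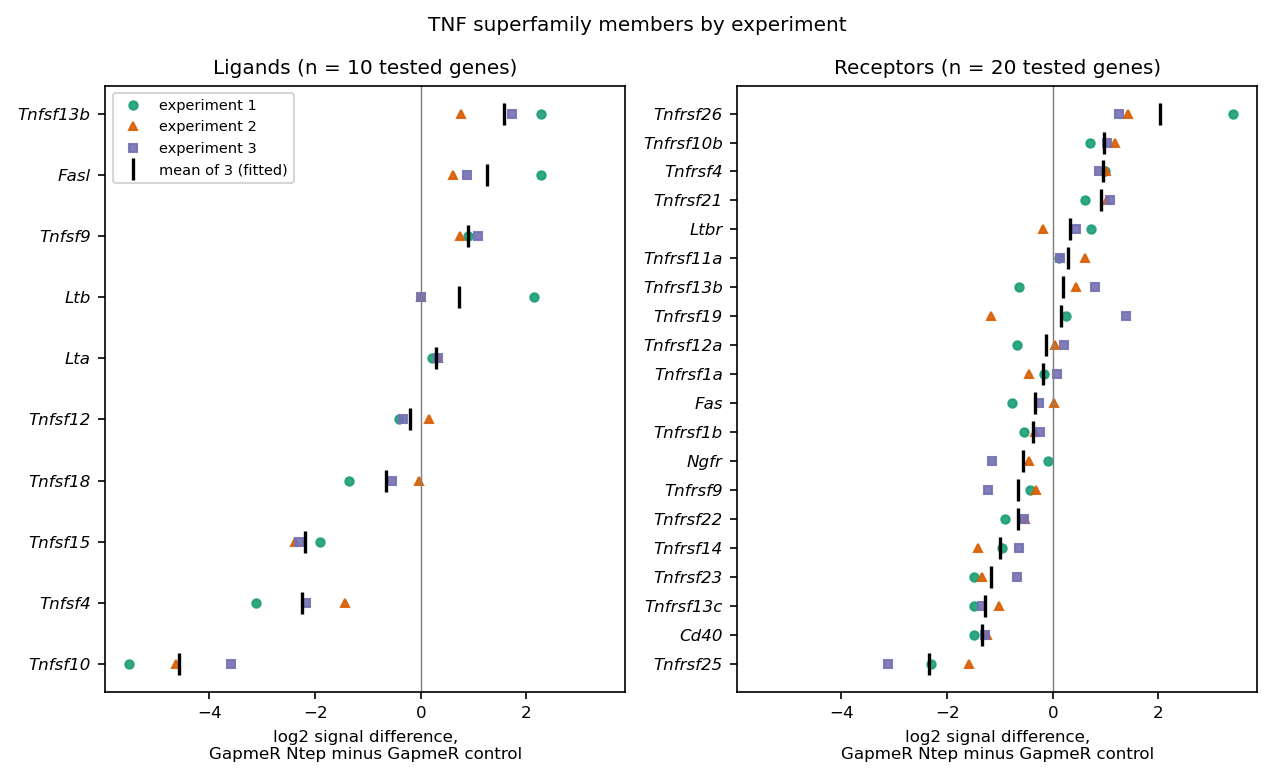
Log2 signal difference (GapmeR Ntep minus GapmeR control) of the 10 tested ligands and the 20 tested receptors, with 1 point per experiment and a bar for their mean. Tnfsf10 lies farthest from 0, at -5.52, -4.64 and -3.59, and the 3 points of Tnfrsf4 lie between 0.88 and 1.01.

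Tnfsf10 encodes TRAIL, a ligand that induces apoptosis through death receptors. Its signal was 65.7, 119 and 149 on the Ntep-labelled arrays, against 3019, 2957 and 1799 on the controls. All 6 values were well above background, and no control came near the highest Ntep-labelled array. The log2 difference was -4.58 (SE 0.377, limma adjusted p = 0.0157), a fold of 24.0. With normexp background correction it was -3.50, a fold of 11.3. The adjusted p was 0.0817 without GapmeR Ntep replicate 3, 0.109 without GapmeR control replicate 2 and 0.0651 without GapmeR control replicate 3, with log2 differences of -4.82 to -4.29 over the 6 omissions. The probe lies on chromosome 3 (mm9, 27238508 to 27238567).

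In mice the receptors of TRAIL are Tnfrsf10b, which carries a death domain, and the decoy receptors Tnfrsf22 and Tnfrsf23. Tnfrsf10b read 30223, 26864 and 30059 on the Ntep-labelled arrays and 18581, 11816 and 14781 on the controls. The labels did not overlap. Its log2 difference was 0.97 (SE 0.215), which missed the adjusted limit (limma adjusted p = 0.0583) and passed it with the experiment as a block (adjusted p = 0.0413). The receptor with a death domain was thus higher in all 3 experiments, by 0.70, 1.18 and 1.02 on the log2 scale, where its ligand was lower.

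Tnfrsf23 read 2260.3, 1678 and 2036 against 6359, 4238 and 3256 on the controls. Its 3 Ntep-labelled arrays lay below every control, and it fell at the unadjusted limit by 1.17 on the log2 scale (SE 0.289, limma adjusted p = 0.0720; 0.0464 with the block). A second probe of Tnfrsf23 was not well above background on any array and was not tested. For Tnfrsf22 the signals were 258, 365 and 430.1 against 482, 523 and 629.9. This difference of -0.66 (SE 0.247, adjusted p = 0.169) did not pass either limit, and a second probe gave -0.60 (adjusted p = 0.271).

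Tnfrsf26 is a neighbour of both genes, within 57.8 kb on chromosome 7 by the positions of their probes in mm9. Its order was the opposite, with 425, 258 and 208 on the Ntep-labelled arrays against 39.8, 96.2 and 87.7 on the controls. Only 2 of its 3 controls were well above background. It rose at the unadjusted limit by 2.03 (SE 0.436, adjusted p = 0.0541; 0.0713 with the block, which lost this call), with 3.42 in experiment 1 and 1.42 and 1.24 in the others. With normexp it was 1.10 (adjusted p = 0.0464). Tnfrsf22, Tnfrsf23 and Tnfrsf26 are closely related in sequence, and binding of one transcript to another's probe was not tested.

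Tnfrsf4 encodes OX40, a costimulatory receptor best known from activated T cells. Its signal was 2943, 2785 and 2436 on the Ntep-labelled arrays and 1484, 1378 and 1328 on the controls. The labels were apart by more than the spread within either. Its rise of 0.96 on the log2 scale (SE 0.164, limma adjusted p = 0.0358) corresponds to a fold of 1.94, just short of 2. This call was lost without any 1 of the 6 arrays (adjusted p of 0.0591 to 0.157). Its ligand Tnfsf4 (OX40L) read 32.9, 52.6 and 20 against 284, 143 and 89.9 on the controls. Its highest Ntep-labelled array lay below its lowest control, but only 1 of these 3 arrays was well above background. It fell at the unadjusted limit by 2.24 (SE 0.530, adjusted p = 0.0661; 0.0397 with the block). With normexp the difference was -0.86, short of the fold of 2, and this call was also lost with 75th percentile scaling.

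Of the T cell markers, 6 of 8 were tested and none passed either limit. Their summed signal was 3913 to 5553 on the Ntep-labelled arrays and 3572 to 4588 on the controls, and 2 of the 8 were not well above background on any array. Of 9 macrophage markers, 6 were tested, 4 higher and 2 lower. After adjustment 1 rose, Cd68 (log2 difference 1.21, adjusted p = 0.0287), and Cd14 rose at the unadjusted limit by 1.11 (adjusted p = 0.0627). The others passed neither limit, with differences of 1.26 for Itgam, 3.19 for Csf1r, whose labels overlapped, -1.28 for Aif1 and -0.18 for Lyz2. The summed signal of these markers was 43012 to 75412 on the Ntep-labelled arrays and 21105 to 27751 on the controls, of which Itgam alone gave means of 32035 and 12753. Ptprc, Fcgr1 and Emr1 were not well above background on any array. The part of other cells in the differences of the members was not tested. In a bulk sample such as these, more cells of a type and more RNA per cell cannot be told apart.

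Tnfsf15 encodes TL1A, and Tnfrsf25 (DR3) is its receptor, with a death domain. Tnfsf15 read 156, 67.5 and 46.4 on the Ntep-labelled arrays and 589, 352 and 229 on the controls. Tnfrsf25 read 59.6, 128 and 28.7 against 294, 385 and 248. Both were lower in all 3 experiments, with no overlap between labels, and for each 2 of the 3 Ntep-labelled arrays were well above background. Tnfsf15 fell by 2.20 (SE 0.548, limma adjusted p = 0.0733; 0.0310 with the block) and Tnfrsf25 fell by 2.33 (SE 0.548, adjusted p = 0.0650; 0.0354 with the block), both at the unadjusted limit. With normexp the differences were -1.21 and -1.07, and with 75th percentile scaling the call of Tnfsf15 was lost.

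Tnfsf9 (4-1BBL) and its receptor Tnfrsf9 (4-1BB) lay on opposite sides of 0. Tnfsf9 read 12123, 8652 and 9265 on the Ntep-labelled arrays and 6511, 5206 and 4394 on the controls. The labels did not overlap. The difference of 0.90 (SE 0.231, limma adjusted p = 0.0771; 0.0400 with the block) passed neither limit unblocked. Tnfrsf9 read 2589, 2518 and 1377 against 3476, 3153 and 3218, a difference of -0.66 (adjusted p = 0.218). A second probe of Tnfrsf9 gave 0.035 (adjusted p = 0.934), so the probes of this gene disagreed.

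Cd40 is a receptor through which T cells activate B cells, macrophages and fibroblasts. Its signal was 623, 414 and 369.6 on the Ntep-labelled arrays and 1749, 980.4 and 893 on the controls. No Ntep-labelled array reached a control. Cd40 fell at the unadjusted limit by 1.33 (SE 0.341, limma adjusted p = 0.0767; 0.0310 with the block), and by 1.49, 1.24 and 1.27 in the 3 experiments. Its ligand Cd40lg was not tested for lack of signal.

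**Figure D2:**
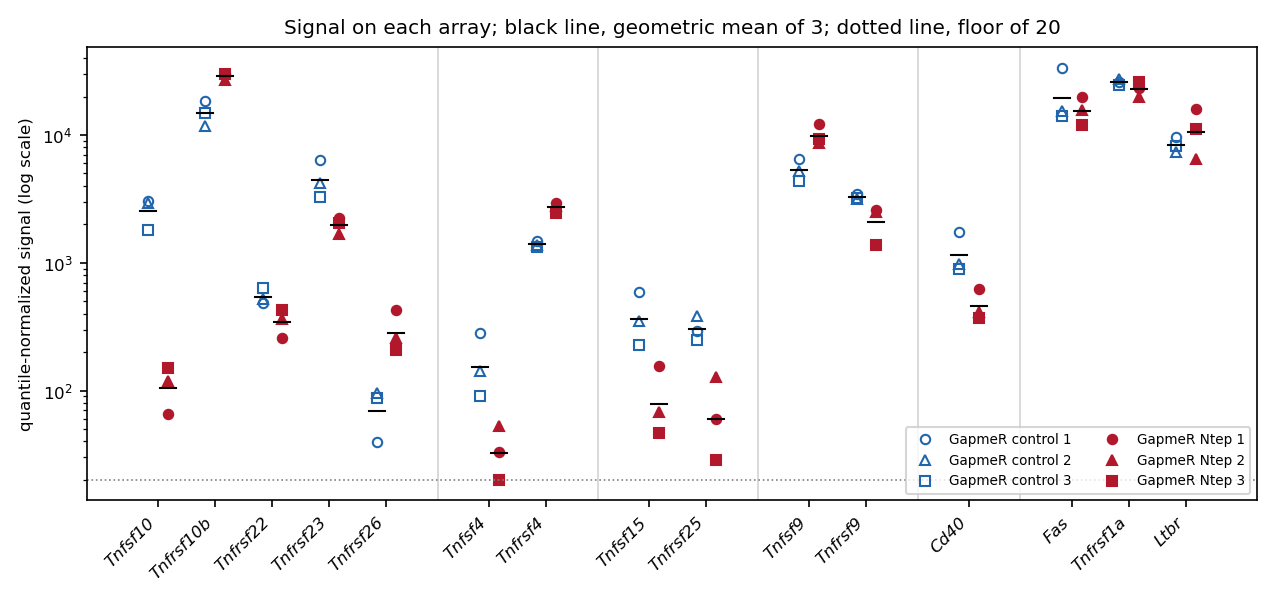
Quantile-normalized signal (log axis) of 15 members on each array, open blue for GapmeR control and filled red for GapmeR Ntep, with the geometric mean of 3 as a line and the floor of 20 dotted; panels group ligands with their receptors, and levels are not comparable between genes. Tnfsf10, Tnfrsf22, Tnfrsf23, Tnfsf4, Tnfsf15, Tnfrsf25, Tnfrsf9 and Cd40 lie lower in red. Tnfrsf10b, Tnfrsf4, Tnfsf9 and Tnfrsf26 lie higher, and Fas, Tnfrsf1a and Ltbr overlap.

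The receptors for TNF did not pass a limit. Tnfrsf1a, which carries a death domain, read 23253, 19956 and 25767 on the Ntep-labelled arrays and 25984, 27254 and 24478 on the controls. The difference was -0.18 (SE 0.173, limma adjusted p = 0.547), and a second, dimmer probe gave 0.31 (adjusted p = 0.296). Its direction therefore differed between probes, and the mean of both gave 0.066. Tnfrsf1b read 625, 479 and 483 against 909, 608 and 568, a difference of -0.37 (SE 0.247, adjusted p = 0.397). Tnf lay at the floor on all arrays, as stated above.

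Fas, the death receptor for FasL, read 19856, 15589 and 11938 on the Ntep-labelled arrays and 33696, 15379 and 14215 on the controls. The high value was that of GapmeR control replicate 1, and the labels overlapped. The difference was -0.33 (SE 0.393, limma adjusted p = 0.625), and 0.065 without that array. Tnfrsf12a (Fn14, the receptor for TWEAK) had the same high control, with 36656, 27479 and 25936 against 58489, 26522 and 22289.6. Its difference of -0.13 (adjusted p = 0.856) became 0.29 without that array and 0.051 with scaling to the 75th percentile. The ligand Tnfsf18 (GITRL) read 5484, 2592 and 1715 against 14096, 2661 and 2514, a difference of -0.65 (adjusted p = 0.632) that became 0.16 without that array. In all, 16 of the 30 tested members were highest in experiment 1 in both labels. The share over all genes was not counted, so this is a description and not a trait of the members.

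Fasl was well above background on 1 array only, GapmeR Ntep replicate 1. It read 186, 30.6 and 36.8 against 38.5, 20 and 20. The labels overlapped (limma adjusted p = 0.340), and no difference is given for it. Ltbr, the receptor for lymphotoxin beta, read 15854, 6519.6 and 11114 against 9601, 7415 and 8190.2, and the labels overlapped (difference 0.33, SE 0.347, adjusted p = 0.584). Ngfr, the low-affinity receptor for neurotrophins, read 89.4, 139.7 and 99.1 against 95.6, 190.3 and 220.3, which also overlapped (difference -0.57, SE 0.370, adjusted p = 0.393).

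The ligand Tnfsf13b (BAFF) was not well above background on any control and was so on 2 Ntep-labelled arrays. It read 195, 45.02 and 67.1 against 40.6, 26.7 and 20.3. The lower bound of its fold was 1.67 (limma adjusted p = 0.164), taken over all 3 Ntep-labelled arrays. Its receptor Tnfrsf13c read 316, 1107 and 886 against 892, 2234 and 2240.4. It was lower within each experiment, with differences of -1.498, -1.01 and -1.34, while the labels overlapped, both arrays of experiment 1 being low. The difference of -1.28 passed no limit without pairing (adjusted p = 0.246) and passed with the block (adjusted p = 0.0337). Tnfrsf21 (DR6, with a death domain) had the reverse sign, with 1558, 700.0 and 1124 against 1018, 343 and 530.1, a difference of 0.91 (adjusted p = 0.300; 0.0454 with the block). Tnfrsf14, the receptor for LIGHT, was well above background on 3 of 6 arrays, and its difference was -1.01 (adjusted p = 0.228).

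The remaining 6 tested members passed neither limit. The differences of 5 of them were 0.28 for Lta, -0.20 for Tnfsf12 (TWEAK), 0.29 for Tnfrsf11a (RANK), 0.20 for Tnfrsf13b and 0.15 for Tnfrsf19. Ltb was well above background on GapmeR Ntep replicate 1 only, with 180.1, 20 and 20 against 40.7, 20 and 20, and no difference is given for it. Of the members, 10 had several probes. Where more than 1 probe was tested, in 6 genes, the probes of Tnfrsf1a and Tnfrsf9 differed in sign.

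Many members lie beside each other in the genome. By probe positions in mm9, with neighbours at most 500 kb apart, 21 of the 40 genes fell into 8 clusters. Tnfsf4, Tnfsf18 and Fasl share 363 kb of chromosome 1, with differences of -2.24 and -0.65 for the first and second. Fasl was well above background on 1 array only, and no difference is given for it. The differences of Tnfrsf26, Tnfrsf22 and Tnfrsf23 on chromosome 7 were 2.03, -0.66 and -1.17. Neighbours on chromosome 7 thus differed in sign. Tnfsf18, Fasl and Tnfrsf22 did not pass a limit. Tnfsf9 lies within 82.2 kb of Cd70 and Tnfsf14 on chromosome 17, and Tnfsf15 within 105.8 kb of Tnfsf8 on chromosome 4; of these only Tnfsf9 and Tnfsf15 had signal enough to be tested.

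The 250 bases before the transcription start are shown for the 2 members past the adjusted limit, from RefSeq promoters of GRCm38.p6, 5′ to 3′ on the strand of the gene. The window of Tnfsf10 is chr3:27316827-27317076 (+) and that of Tnfrsf4 is chr4:156013445-156013694 (+).
Tnfsf10: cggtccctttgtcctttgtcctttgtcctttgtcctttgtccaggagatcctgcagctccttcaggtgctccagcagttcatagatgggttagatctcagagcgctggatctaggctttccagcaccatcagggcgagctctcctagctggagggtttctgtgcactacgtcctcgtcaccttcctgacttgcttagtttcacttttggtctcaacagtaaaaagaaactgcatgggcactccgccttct
Tnfrsf4: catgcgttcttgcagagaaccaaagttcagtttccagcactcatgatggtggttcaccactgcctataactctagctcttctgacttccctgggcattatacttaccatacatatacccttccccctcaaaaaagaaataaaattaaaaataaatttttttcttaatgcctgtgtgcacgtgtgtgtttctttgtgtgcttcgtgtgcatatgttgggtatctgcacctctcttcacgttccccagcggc

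Such windows were at hand for 31 of the 40 genes, as 35 windows, and were searched on both strands for 5 motifs. Matches to the interferon-stimulated response element (GAAA, any 2 bases, GAAA) were found for 4 genes, to the gamma-activated site (TTCNNNGAA) for 8, to the kappaB site for 4, to the AP-1 site (TGANTCA) for 5 and to the p53 half-site for 2. The shares of all 32851 windows with a match were 2.977%, 7.02%, 7.251%, 6.749% and 7.126%. These shares are per window, whereas a member gene was counted where any of its windows matched. The 2 windows printed above hold none of the 5, so they have no capitals, and neither do those of Tnfsf15 and Tnfrsf23. The response element was found for Tnfrsf14, Tnfrsf17, Tnfrsf1b and Tnfsf13b, and the kappaB site for Ltb, Tnfrsf8, Tnfrsf9 and Tnfrsf25. Of these 8 genes, Tnfrsf8 and Tnfrsf17 were not tested, and Tnfrsf25 alone passed either limit. No window was at hand for Cd40, Tnfsf4 or Tnfrsf26, which passed the unadjusted limit. A match is a match of letters only.

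Downstream of the receptors, 21 adaptors and kinases that carry the signal to NF-kappaB were listed, and all were tested. After adjustment 2 fell and none rose, and 13 of 21 differences were below 0 (median -0.095). Tab3, an adaptor of the kinase TAK1, read 1499.5, 2207 and 1936 on the Ntep-labelled arrays and 5479, 4502 and 4942 on the controls (difference -1.42, SE 0.207, limma adjusted p = 0.0288). Map3k14, the kinase NIK of the non-canonical pathway, fell by 1.18 (SE 0.235, adjusted p = 0.0475). Traf5 fell by 1.17 at the unadjusted limit (adjusted p = 0.0669). Of 9 negative regulators, Nfkbie fell by 2.05 (SE 0.372, adjusted p = 0.0392) and Nfkbib rose by 0.99 (SE 0.192, adjusted p = 0.0458). Both encode inhibitors that hold NF-kappaB in the cytoplasm, and they moved in opposite directions.

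Of 10 genes of death signalling, 2 fell after adjustment and none rose. Daxx, known as a partner of Fas, read 46081, 52108 and 47233 on the Ntep-labelled arrays and 102727, 108068 and 90516 on the controls, with no overlap, and fell by 1.05 (SE 0.163, limma adjusted p = 0.0317). Faf1, also known as a partner of Fas, fell by 1.29 (adjusted p = 0.0393). The other 8 genes of this list, among them Fadd, Casp8 and Cflar, passed neither limit. Of 5 genes of ligand shedding, with Adam17 and Adam10, none passed either limit, and their differences lay between -0.28 and 0.40.

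Of 20 genes commonly listed as induced by TNF, 17 were tested, and 8 were higher and 9 lower (median -0.18). Their median was -0.79 in experiment 1, but 0.088 and 0.22 in experiments 2 and 3. Mmp3, a matrix metalloproteinase, rose after adjustment (limma adjusted p = 0.0475). It reached the mean signal of 50 under the Ntep label only, so its call is a description. It was not well above background on any control and at least 6.28-fold higher on the Ntep-labelled arrays. The chemokines Cxcl10 and Ccl7 fell at the unadjusted limit, by 1.49 (adjusted p = 0.0522) and 1.14 (adjusted p = 0.0815). Of the 5 superfamily genes outside the naming rule, Eda2r (1.06) and Relt (0.15) were tested and passed neither limit.

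Beside these, each of 12 interferon-stimulated genes had a lower mean under the Ntep label, 5 of them after adjustment, with a median of -2.12 and medians of -3.11, -1.499 and -1.40 in the 3 experiments. Tnfsf10 and Cxcl10 are also known to be induced by interferon. Their differences were largest in experiment 1, at -5.52 and -2.27. Of the other members past the unadjusted limit, this was also so for Tnfsf4 (-3.11), Tnfrsf26 (3.42), Cd40 (-1.49) and Tnfrsf23 (-1.49). It was not so for Tnfsf15 or Tnfrsf25. Tnfsf13b, with the response element in some but not all of its windows, was higher within each experiment and passed no limit. The part of the interferon response in the differences of the members was not tested. Of the 10 fibroblast markers, 9 were tested, all 9 were well above background on all 6 arrays, and none passed either limit (median -0.47). Of the B cell, endothelial and epithelial markers, 1, 2 and 6 were tested, and none passed either limit.

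**Figure D3:**
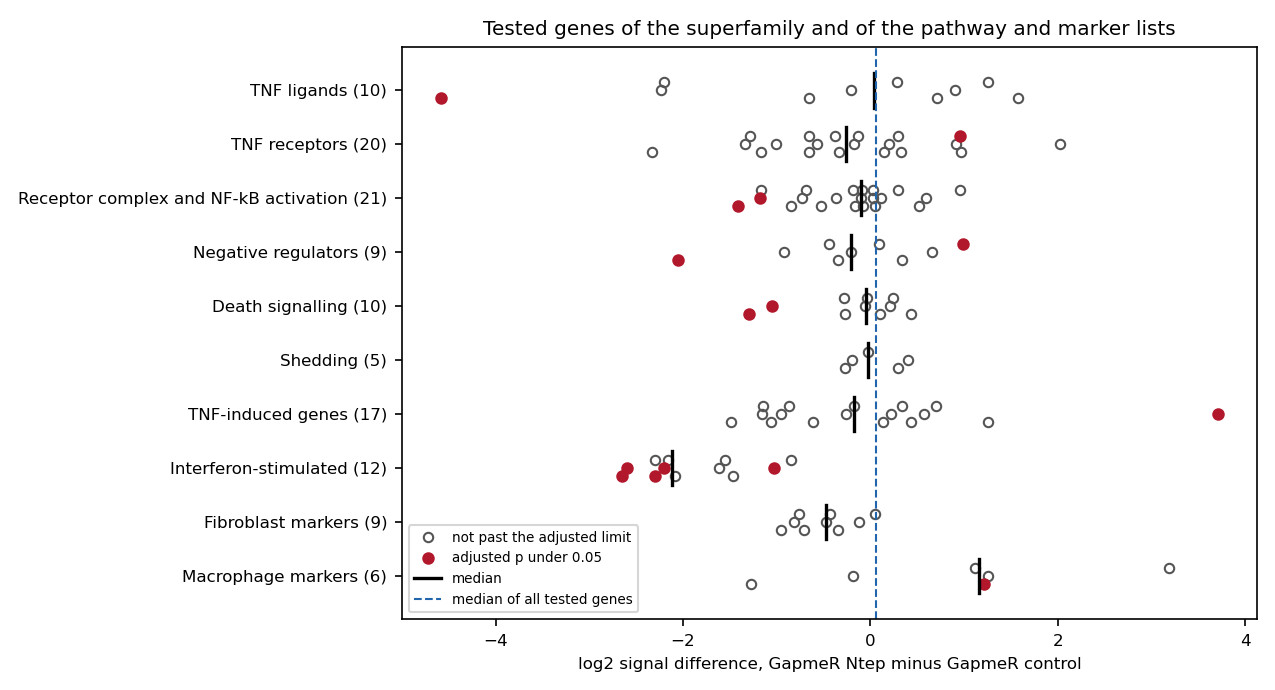
Log2 signal difference (GapmeR Ntep minus GapmeR control) of each tested gene of the superfamily and of 8 lists, with the number of tested genes in brackets, the median of each list as a bar and the median of all genes as a dashed line; filled points passed the adjusted limit. The TNF ligands and receptors spread to both sides of 0, whereas all 12 interferon-stimulated genes lie below it.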

How the data were processed

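Total RNA of 3T3 cells was labelled and hybridised to 6 Agilent mouse arrays in 1 color. The authors deposited scanner intensities per array, background subtracted on a linear scale by Agilent Feature Extraction 10.7.3.1 (per the labels), and quantile-normalized intensities with values under 20 set to 20. From the scanner intensities, spots of a probe were averaged and quantile normalization was applied across arrays. The floor was 20. The log2 scale was used for limma 3.58.1 (R 4.3.3, version 1.17.8 of data.table), without pairing, as in the study's unpaired test. A probe was tested where its mean in the brighter label reached 50, and p-values (two-sided) were adjusted by Benjamini-Hochberg over all 30990 of them. Differences are GapmeR Ntep minus GapmeR control; with values set to 20, they understate changes of dim probes. For Tnfsf13b and Mmp3, which were not well above background on any control, a lower bound of the fold is given. It was set from the lowest signal well above background on each array. No spot was saturated. The number of arrays limits the precision, and a permutation test of 3 against 3 cannot go below 0.1. Replicate numbers are those of the experiments in a supplement of the study; residuals of arrays of the same experiment correlated at 0.466, 0.300 and 0.254, and other pairs at -0.327 to 0.126, so the numbers pair the arrays. Named genes are the members past either limit, the main receptors and ligands, and up to 5 genes past a limit in each pathway list. Members, lists and tests were chosen with earlier results of these data known. One gene was taken out of the death signalling list and is not reported here. Probe positions are those of mm9 in the files, and gene names are those of the array design. The filter on signal and the fit without pairing were tested on simulated data with independent noise. Normalization and the block were not part of that test. Alternatives were 75th percentile scaling, normexp with an offset of 50, the authors' normalized intensities, a floor of 5, other filters, outlier spots left out, an intensity trend, array weights, the methods' t-test, the experiment as a block, the mean of all probes, each array left out and, chosen after seeing the data, both arrays of experiment 1 left out.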

Additional observations from a re-analysis of the deposited data

How the results depend on the processing

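The number of members tested was 30 as reported, 40 with normexp or without a filter, and 24 with the filter on probes well above background. Without 1 array it was 28 to 32. The count of members past the adjusted limit was 2. With the share of all genes that passed in brackets (5.16% as reported), it was 6 with normexp (4.75%), 8 with the filter on probes well above background (11.2%), 8 with an intensity trend (9.1%), 16 with array weights (33.6%), 11 with the experiment as a replicate block (13.9%), 1 with the methods' t-test (0.926%), 1 without experiment 1 (2.85%; chosen after seeing the data) and 0 to 2 without 1 array (limma; 0 without GapmeR Ntep replicate 3, GapmeR control replicate 2 or GapmeR control replicate 3, with 11 members at an unadjusted p under 0.05 in each, and with 0, 0 and 5 of all genes past the adjusted limit). The count at fold 2 and an unadjusted p under 0.01 was 7, with 7.89% of all genes. It was 1 without a filter (3.5% of all genes), 11 with array weights (14.3%) and 1 with the methods' t-test (4.47%). Without 1 array it was 2 to 6, with 4.87% to 9.87% of all genes. The median was -0.19, and 0.018 with 75th percentile scaling, 0 without a filter and -0.36 to 0.11 without 1 array. At the adjusted limit the block added the 9 calls given beside the members and lost none. At fold 2 and an unadjusted p under 0.01 the call of Tnfrsf26 was lost with the block. Differences turned for Fas without GapmeR control replicate 1 (0.065; -0.56 to 0.065 over the omissions), for Tnfrsf12a with 75th percentile scaling (0.051), array weights (0.074), without GapmeR control replicate 1 (0.29; -0.41 to 0.29) and without experiment 1 (0.13), for Tnfrsf13b without GapmeR Ntep replicate 3 (-0.011; -0.011 to 0.46), for Tnfrsf19 without GapmeR Ntep replicate 3 (-0.09) and GapmeR control replicate 3 (-0.22; -0.22 to 0.49), for Tnfrsf1a with the mean of all probes (0.066), for Tnfsf12 without GapmeR Ntep replicate 1 (0.040; -0.46 to 0.040) and for Tnfsf18 without GapmeR control replicate 1 (0.16; -1.10 to 0.16); none of these passed a limit. Tnfrsf4 missed the adjusted limit under the methods' t-test (adjusted p = 0.0502) and without experiment 1 (adjusted p = 0.0630). The cause of these changes was not tested. Signal near background limits Fasl, Ltb, Tnfsf4, Tnfsf13b, Tnfrsf13b, Tnfrsf14 and Tnfrsf19.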
